A study of Rattus norvegicus with 12 samples.

Results

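The genes described here encode the translation initiation factors (symbols starting with Eif1 to Eif6) and elongation factors (Eef1 and Eef2) of the rat, followed in adult ventricular myocytes that overexpressed the nuclear receptor NR4A2. Membership is defined by the symbol, a rule that uses no measured value, and 1 gene of that naming was left out. This gave 59 of the 17301 gene names listed, each with a single transcript and each above 0 in all 12 samples. The myocytes (ARVMs) were isolated from hearts of male Sprague-Dawley rats and transduced at 50 MOI with an adenovirus encoding green fluorescent protein (Ad-GFP, 6 samples) or human NR4A2 under the CMV promoter (Ad-h-NR4A2, 6 samples). Both groups thus carried an adenovirus, were kept in the same serum-free medium with the contraction inhibitor BDM, and have no further treatment in the sample labels. RNA was taken 48 h later. The samples of both groups are numbered 24 to 29, and a pair is 1 Ad-GFP and 1 Ad-h-NR4A2 sample of the same number.

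Translation starts when eIF2, bound to GTP, brings the initiator tRNA to the small ribosomal subunit, where eIF1, eIF1A, eIF3, and eIF5 also sit. The eIF4F complex, made of the cap-binding protein eIF4E, a scaffold of the eIF4G family, and the helicase eIF4A, recruits this assembly to the capped mRNA. After start-codon recognition eIF5B joins the large subunit, and eEF1A and eEF2 then carry out elongation by delivering aminoacyl-tRNAs and moving the ribosome along. Cells hold this process back by the 4E-binding proteins, which capture eIF4E, by kinases that phosphorylate eIF2alpha and so block its exchange factor eIF2B, and by eEF2 kinase. In the heart the growth of myocytes depends on raised protein synthesis, and adult muscle uses its own form of eEF1A, encoded by Eef1a2. NR4A2, an orphan nuclear receptor, binds as a monomer to a DNA element called NBRE.

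FPKM, the fragments on a transcript per kilobase of transcript, relative to the mapped fragments, is the scale of all levels below. Fold changes are Ad-h-NR4A2 against Ad-GFP on the log2(FPKM + 0.1) scale, with adjusted p from limma after Benjamini-Hochberg adjustment over the 10950 genes that were above 0 in all samples, and a change was called at an adjusted p below 0.05. Nr4a2 was 0.626 to 1.4 FPKM in the Ad-GFP samples and 445 to 592 FPKM in the Ad-h-NR4A2 samples, a value that includes any transgene fragments aligned to the rat gene, so that every sample matched its label. The summed FPKM of 5 cardiomyocyte markers was 8368 to 9932 in Ad-GFP and 7148 to 8223 in Ad-h-NR4A2. The corresponding sums were 6.98 to 25.1 and 4.96 to 23.9 for 5 fibroblast markers, of which Col1a2 was listed at 0 throughout, 4.48 to 15.3 and 3.4 to 14.1 for 3 endothelial markers, and 7.04 to 20.2 and 6.83 to 16.5 for 3 smooth muscle markers. For 3 macrophage markers they were 5.94 to 17.2 and 37 to 44.1, but Csf1r alone rose, from a mean of 10.1 to 40.2 FPKM, while the pan-leukocyte gene Ptprc was at most 0.0489 FPKM in any sample and Cd68 averaged 0.463 and 0.482 FPKM. The part of these shifts in the results below was not tested. In bulk RNA, fewer cells of a type and less RNA per cell cannot be told apart.

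More factor genes rose than fell with Ad-h-NR4A2, and most of the changes were small. Of the 59 genes, 27 rose (45.8%), 6 fell (10.2%), and 26 were not called. Among all genes tested, 19.3% rose, 21.7% fell, and 40.9% changed in either direction, against 55.9% of the factor genes. Higher levels bring smaller errors, so genes with a mean of at least 10 FPKM, a limit chosen after seeing the data, were also counted alone. Of these 23.1% rose and 24.1% fell, while 24 (44.4%) of the 54 factor genes at that level rose and 6 (11.1%) fell. The median log2 fold change was 0.11 over the factor genes, with 43 above 0 and 16 below, and -0.025 over all genes. In absolute terms the median log2 fold change was 0.16 for the factor genes and 0.2 for all genes. On the log2 scale the factor genes lay between -0.49 (Eef2k) and 0.95 (Eif5a2). Only Eif5a2, Eif4e3, Eef2kmt, and Eif1b combined an adjusted p below 0.05 with a ratio of mean FPKM of at least 1.5, which is 6.78% of the factor genes against 7.94% of all genes. None fell by that much, against 7.24% of all genes, and the 6 that fell did so at an adjusted p below 0.05 without the ratio limit. The 6 values of each group did not overlap for 18 factor genes that were higher (30.5%, all genes 10.9%) and for 5 that were lower (8.47%, all genes 10.6%). When samples of the same number were fitted as a replicate block, 33 factor genes rose (55.9%, all genes 27.1%) and 9 fell (15.3%, all genes 32.3%). The block kept all 33 calls and added 9, which are named with their classes below. The summed FPKM of all 59 genes was 8422 to 9390.2 in Ad-GFP and 9071 to 9727 in Ad-h-NR4A2, overlapping between groups but higher in 6 of 6 pairs. The FPKM summed over all transcripts was likewise higher in 6 of 6 pairs, at 708617 to 732206 in Ad-GFP and 710387 to 751925 in Ad-h-NR4A2. The direction of the pairs is thus shared by the FPKM sum of the whole data, whose part in the factor sum was not tested. On the TPM scale the whole sum is equal in all samples. There the median log2 fold change was 0.09 over the factor genes and -0.043 over all genes.

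**Figure D1:**
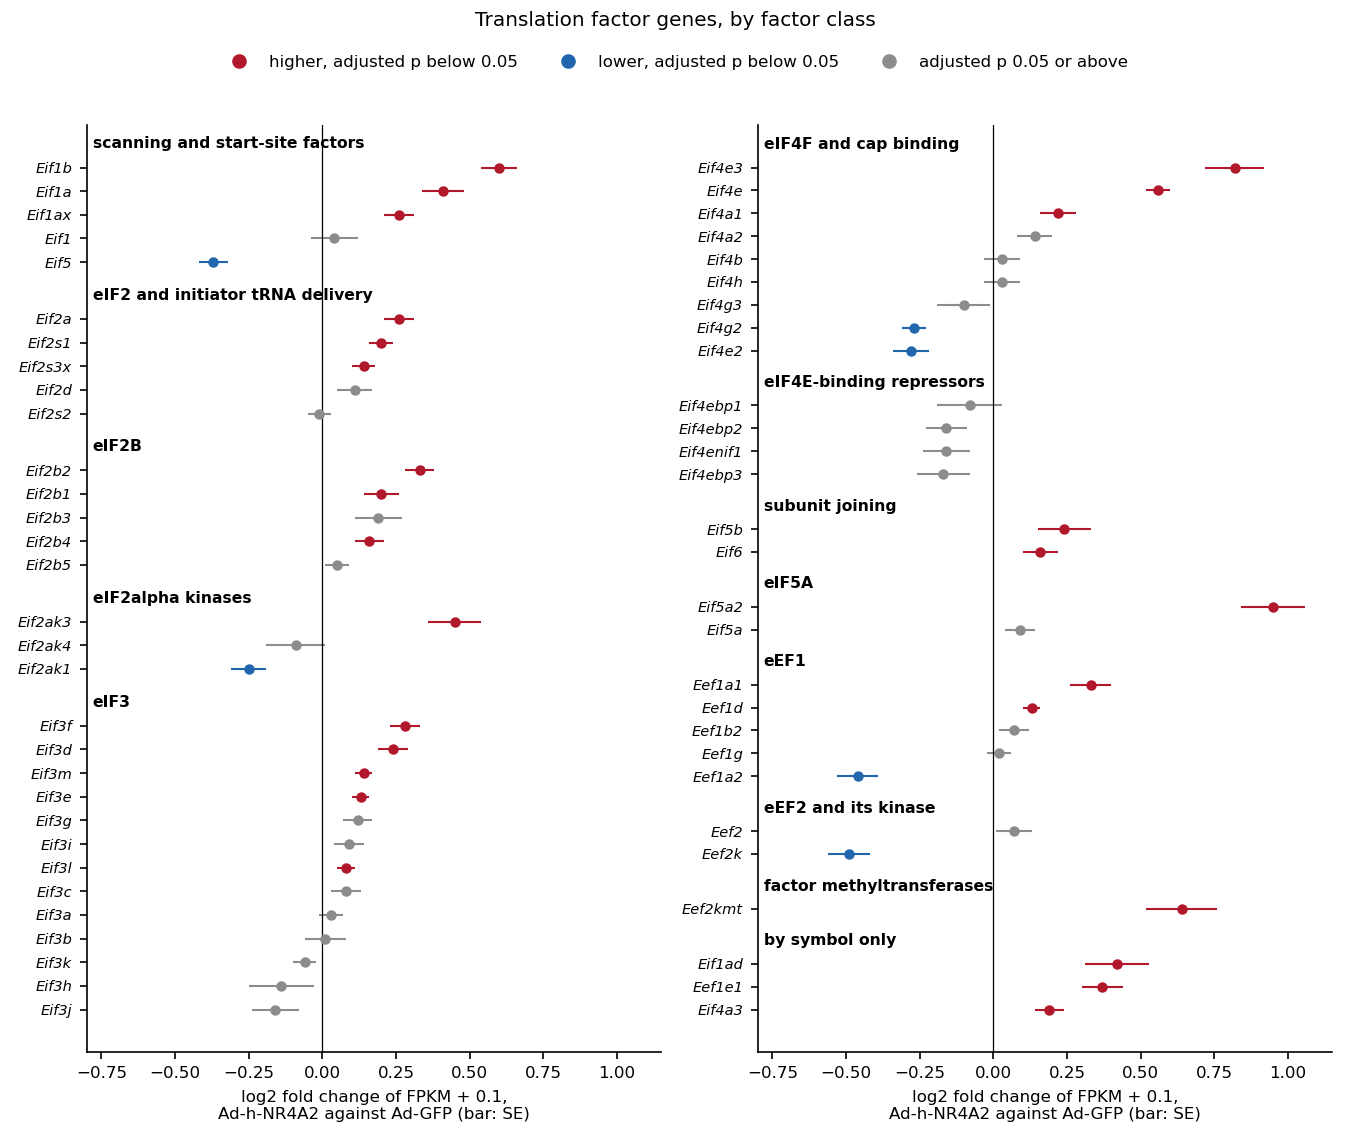
Log2 fold change of FPKM + 0.1, Ad-h-NR4A2 against Ad-GFP (horizontal axis), for each of the 59 factor genes by class, with bars of 1 SE and 6 samples per group. Red points mark the 27 genes that rose, blue points the 6 that fell, and grey points the 26 not called, and Eif5a2 at 0.95 and Eef2k at -0.49 are the ends of the range.

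**Figure D2:**
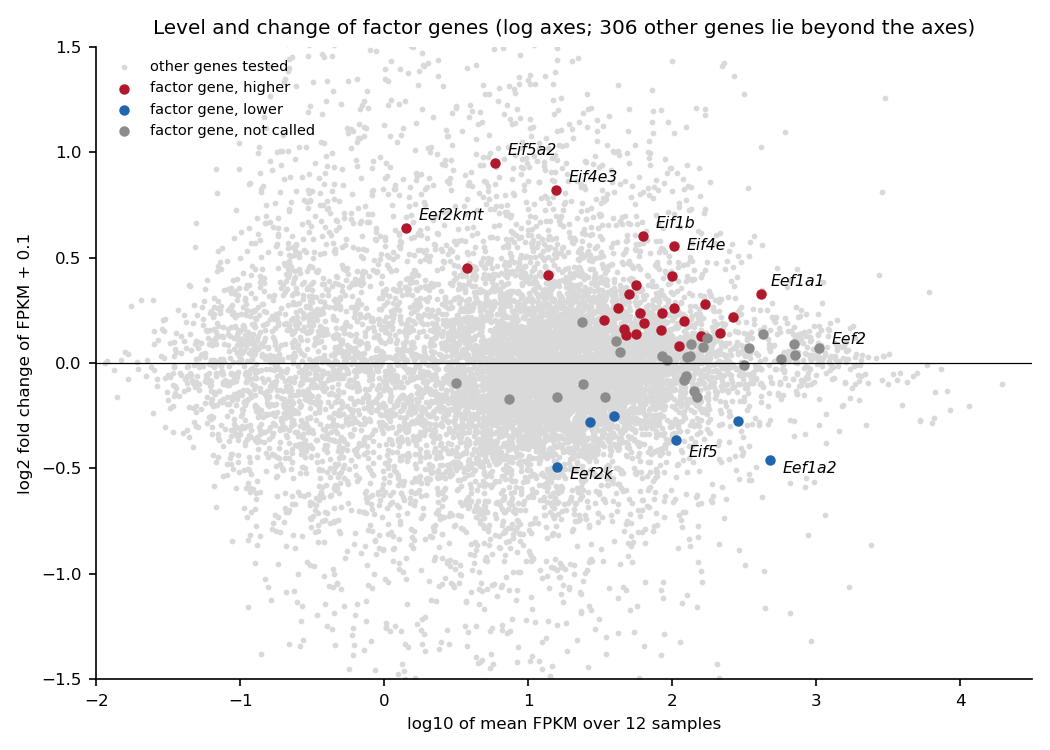
Log10 of the mean FPKM over 12 samples (horizontal) against the log2 fold change (vertical) for the 59 factor genes in colour and all other genes tested in light grey, with 306 genes beyond the axes. The labelled genes Eif5a2 and Eif4e3 lie highest at means of 5.85 and 15.5 FPKM, and Eef1a2, at a mean of 477 FPKM, is the most abundant that fell.

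To place the sequences beside the values, the proximal promoters of the factor genes, from 250 bases before to 30 bases after the RefSeq transcription start on the GRCr8 assembly, were searched on both strands for 2 motifs, and 53 of the 59 genes had a promoter entry. The NBRE, spelled AAAGGTCA, stood in 1.35% of all 33469 promoters and in 1 factor gene, Eef1b2, which was not called. The E-box CACGTG, the element read by Myc and by the USF and TFE families, stood in 6.18% of all promoters and in 9 factor genes (17.0%). These were Eif1b, Eif3f, Eif4e, and Eif5a2 among 24 promoters of genes that rose, Eef2k among 6 of genes that fell, and Eef2, Eif3b, Eif4h, and Eif5a among 23 of genes not called. The promoters of the E-box genes that changed and of the NBRE gene are printed 5′ to 3′ in the direction of transcription, with the motif in capitals. In Eef1b2 the NBRE reads on the opposite strand, and Eif4e and Eif5a2 each hold 2 E-boxes. A match is a run of letters and no evidence of binding, and base composition was not taken into account. The 33469 promoters outnumber the gene names in the data and were not limited to genes tested here. The shares of all promoters and of factor genes are thus over unlike sets, and an excess was not tested.
Eif4e (GRCr8 chr2:229740503-229740782, plus strand): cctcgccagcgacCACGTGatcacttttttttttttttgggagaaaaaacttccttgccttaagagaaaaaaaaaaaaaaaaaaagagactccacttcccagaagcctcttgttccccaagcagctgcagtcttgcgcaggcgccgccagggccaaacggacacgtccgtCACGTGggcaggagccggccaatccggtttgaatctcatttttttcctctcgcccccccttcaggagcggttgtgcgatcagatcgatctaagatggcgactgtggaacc
Eif5a2 (GRCr8 chr2:113657584-113657863, plus strand): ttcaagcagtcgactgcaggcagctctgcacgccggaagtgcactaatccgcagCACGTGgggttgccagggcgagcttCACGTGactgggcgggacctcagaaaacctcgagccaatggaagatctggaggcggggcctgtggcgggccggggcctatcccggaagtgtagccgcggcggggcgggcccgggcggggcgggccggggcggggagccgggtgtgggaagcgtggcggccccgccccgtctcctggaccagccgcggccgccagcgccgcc
Eif1b (GRCr8 chr8:129080908-129081187, plus strand): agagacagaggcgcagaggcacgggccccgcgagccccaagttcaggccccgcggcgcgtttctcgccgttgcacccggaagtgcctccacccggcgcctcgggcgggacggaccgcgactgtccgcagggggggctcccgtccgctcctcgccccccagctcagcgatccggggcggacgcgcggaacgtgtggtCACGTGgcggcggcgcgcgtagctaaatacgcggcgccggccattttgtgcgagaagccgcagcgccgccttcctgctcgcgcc
Eif3f (GRCr8 chr1:172368812-172369091, plus strand): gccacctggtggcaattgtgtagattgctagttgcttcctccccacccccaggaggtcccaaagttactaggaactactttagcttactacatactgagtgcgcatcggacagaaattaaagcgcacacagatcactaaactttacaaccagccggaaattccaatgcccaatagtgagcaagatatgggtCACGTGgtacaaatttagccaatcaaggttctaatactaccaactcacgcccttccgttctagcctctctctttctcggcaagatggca
Eef2k (GRCr8 chr1:184824170-184824449, plus strand): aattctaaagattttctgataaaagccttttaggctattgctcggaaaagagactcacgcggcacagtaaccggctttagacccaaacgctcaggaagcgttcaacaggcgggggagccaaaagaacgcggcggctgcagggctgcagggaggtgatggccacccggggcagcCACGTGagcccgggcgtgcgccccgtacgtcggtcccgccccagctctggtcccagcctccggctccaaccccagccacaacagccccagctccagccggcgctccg
Eef1b2 (GRCr8 chr9:72073841-72074120, plus strand): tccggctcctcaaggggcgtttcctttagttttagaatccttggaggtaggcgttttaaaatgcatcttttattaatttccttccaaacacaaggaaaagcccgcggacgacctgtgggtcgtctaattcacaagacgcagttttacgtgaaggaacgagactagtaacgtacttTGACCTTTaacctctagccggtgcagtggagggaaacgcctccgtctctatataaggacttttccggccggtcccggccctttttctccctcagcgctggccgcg

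Among the scanning and start-site factors, 3 of 5 genes rose and 1 fell, with a median log2 fold change of 0.26. Eif1b, which encodes a close paralog of the start-codon guard eIF1, lies on chromosome 8 (Rn5, 128356696 to 128359310). Its lowest, median, and highest values were 44.3, 50.9, and 51.4 FPKM in Ad-GFP and 69.2, 73.3, and 84.8 FPKM in Ad-h-NR4A2. All Ad-h-NR4A2 samples were thus above all Ad-GFP samples, and the means were 49.8 ± 2.78 and 75.7 ± 6.78 FPKM (SD, n = 6; log2 fold change 0.60, SE 0.06, adjusted p = 3.86e-06). Its ratio of 1.52 was close to the limit of 1.5 and fell below it, to between 1.48 and 1.49, without Ad-GFP sample 28, Ad-h-NR4A2 sample 26, or Ad-h-NR4A2 sample 27. Eif1 itself, the most abundant of the class, ran from 611 to 787 FPKM around a median of 715 in Ad-GFP and from 639.7 to 816 FPKM around 727 in Ad-h-NR4A2. These ranges overlapped almost wholly, and its log2 fold change was 0.04 with a 95% interval of -0.12 to 0.20 (SE 0.08, adjusted p = 0.725). The share of Eif1b in the summed FPKM of Eif1 and Eif1b went from 6.63% ± 0.759 to 9.5% ± 1.18, with no overlap between groups.

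Both copies of eIF1A, which opens the small subunit for scanning, rose. Eif1a had mean FPKM of 85.5 in Ad-GFP and 114 in Ad-h-NR4A2 (log2 fold change 0.41, adjusted p = 0.000516), and Eif1ax 93.7 and 113 (0.26, adjusted p = 0.000597). How reads common to near-identical copies were assigned is not given in the sources used here, so the split between these genes, and the levels of others with close copies such as Eef1a1, Eif4a1, and Eif5a, are uncertain. Eif5, the GTPase-activating protein that commits eIF2 to a start codon, moved the other way. It fell from 119 ± 7.04 to 92.5 ± 6.18 FPKM, with 109 as the lowest Ad-GFP value and 102 as the highest Ad-h-NR4A2 value (log2 fold change -0.37, SE 0.05, adjusted p = 8.82e-05, lower in 6 of 6 pairs).

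For eIF2 and the delivery of initiator tRNA, 3 of 5 genes rose and none fell. Eif2s1, the alpha subunit that carries the regulatory phosphorylation site, was 106 to 122 FPKM in Ad-GFP and 124 to 134 FPKM in Ad-h-NR4A2, with no overlap (log2 fold change 0.20, adjusted p = 0.0012). Eif2s3x, the gamma subunit that binds GTP and tRNA, had a log2 fold change of 0.14 (adjusted p = 0.0188), a call that was lost with quantile normalization. Eif2s2, the beta subunit and the most abundant of the class, had a lowest, median, and highest value of 298, 317, and 344 FPKM in Ad-GFP and 307, 318, and 327 FPKM in Ad-h-NR4A2. The means of 318 ± 18 and 316 ± 7.84 FPKM (n = 6) were nearly equal, with a log2 fold change of -0.01 (SE 0.04, 95% interval -0.09 to 0.08, adjusted p = 0.9). Eif2a, which encodes the alternative factor eIF2A and is not a subunit of eIF2, had the smallest adjusted p of the class. Its values ran from 35 to 42.3 FPKM (median 38.2) in Ad-GFP and from 43.8 to 47.2 FPKM (median 45.6) in Ad-h-NR4A2 without overlap (means 38 ± 2.66 and 45.5 ± 1.49, log2 fold change 0.26, SE 0.05, adjusted p = 0.000756). For Eif2d, another noncanonical factor, the log2 fold change was 0.11 (adjusted p = 0.21), and it passed with the replicate block (adjusted p = 0.011).

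All 5 subunits of eIF2B, the factor that reloads eIF2 with GTP, had positive log2 fold changes, and 3 of them rose. Eif2b2, the beta subunit (Rn5, chromosome 6, 116505786 to 116512210), was both the most abundant and the one with the smallest adjusted p. It spanned 39.8 to 48.9 FPKM in Ad-GFP around a median of 45.6 and 54.8 to 57.7 FPKM in Ad-h-NR4A2 around 55.7. The groups were separate and the Ad-h-NR4A2 values close together (means 44.6 and 55.9 FPKM, log2 fold change 0.33, SE 0.05, adjusted p = 0.000157). Eif2b1, the alpha subunit, rose by a log2 of 0.20 (adjusted p = 0.0122) and Eif2b4, the delta subunit, by 0.16 (adjusted p = 0.0132), and the Eif2b4 call was lost on the TPM scale. Eif2b3, the gamma subunit, reached 0.19 (adjusted p = 0.0731; 0.00814 with the replicate block). Eif2b5, the catalytic epsilon subunit, had the smallest difference of the class at 0.05 (95% interval -0.03 to 0.14, adjusted p = 0.331).

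The eIF2alpha kinase genes followed here, which are not the whole family, differed in direction. Eif2ak3, which encodes PERK, the kinase that senses unfolded protein in the endoplasmic reticulum, was 2.76, 3.13, and 3.78 FPKM (lowest, median, highest) in Ad-GFP and 3.82, 4.36, and 4.92 FPKM in Ad-h-NR4A2. The highest Ad-GFP value lay just under the lowest Ad-h-NR4A2 value, and the means were 3.19 ± 0.36 and 4.38 ± 0.371 FPKM (log2 fold change 0.45, SE 0.09, adjusted p = 0.00128). Eif2ak1, the heme-regulated kinase HRI and the most abundant of the class, ran from 38.1 to 46.5 FPKM (median 43) in Ad-GFP and from 31.4 to 38.8 FPKM (median 36.4) in Ad-h-NR4A2. The ranges met at their edges, but it was lower in 6 of 6 pairs and fell from 42.8 ± 2.75 to 35.9 ± 2.49 FPKM (log2 fold change -0.25, SE 0.06, adjusted p = 0.00316). Eif2ak4, the amino-acid sensor GCN2, had a log2 fold change of -0.09 (95% interval -0.32 to 0.13, adjusted p = 0.504). The ratio of Eif2ak1 to Eif2ak3 was 11.5 to 16.8 in Ad-GFP and 7.11 to 9.7 in Ad-h-NR4A2.

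Of the 13 measured subunits of eIF3, the large scaffold of the small ribosomal subunit, 5 rose and none fell, with a median log2 fold change of 0.08. Those that rose were Eif3d, Eif3e, Eif3f, Eif3l, and Eif3m, and e, f, l, and m belong to the structural core of the complex while d contacts the mRNA cap. Eif3f had the smallest adjusted p, with 135, 155, and 166 FPKM (lowest, median, highest) in Ad-GFP and 178, 183, and 196 FPKM in Ad-h-NR4A2. Its groups did not overlap (152 ± 10.6 and 185 ± 7.01 FPKM, log2 fold change 0.28, SE 0.05, adjusted p = 0.00042). Eif3m, the most abundant, ran from 197 to 213 FPKM (median 202) in Ad-GFP and from 208 to 229 FPKM (median 227) in Ad-h-NR4A2, and only Ad-h-NR4A2 sample 28, at 208 FPKM, fell within the Ad-GFP range. Its means were 203 ± 5.82 and 224 ± 7.97 FPKM (log2 fold change 0.14, SE 0.03, adjusted p = 0.00464). Eif3d rose by a log2 of 0.24 (adjusted p = 0.00162) and Eif3e by 0.13 (adjusted p = 0.0048).

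The call of Eif3l was marginal (log2 fold change 0.08, adjusted p = 0.0494) and was lost in 10 of the 12 fits that left out 1 sample, in which its adjusted p was 0.0306 to 0.102. It was also lost on the TPM scale, with quantile normalization, without the trend, and when genes averaging under 1 FPKM were dropped. The other 8 subunits had log2 fold changes from -0.16 to 0.12. With the replicate block Eif3g (0.12, adjusted p = 0.00365) and Eif3i (0.09, adjusted p = 0.0315) passed as higher, and Eif3j, the loosely bound subunit, passed as lower (-0.16, adjusted p = 0.00318). Eif3h had the widest spread of the class, from 98.7 to 159 FPKM in the Ad-h-NR4A2 samples. For Eif3a and Eif3b, the large subunits that organise the complex, the log2 fold changes were 0.03 (95% interval -0.05 to 0.12) and 0.01 (95% interval -0.13 to 0.16).

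Within eIF4F and its cap-binding relatives, 3 of 9 genes rose and 2 fell. The scaffold gene Eif4g1 was not among the gene names listed, so eIF4F is not fully covered. Eif4e, the cap-binding subunit that the 4E-binding proteins compete for, had the smallest adjusted p of all factor genes (Rn5, chromosome 2, 262355381 to 262387512). In Ad-GFP it was 76.8 FPKM at the lowest, 84.5 at the median, and 87.9 at the highest, and in Ad-h-NR4A2 114, 124, and 125 FPKM. Every Ad-h-NR4A2 sample stood well clear of every Ad-GFP sample (83.1 ± 4.55 and 122 ± 4.43 FPKM, log2 fold change 0.56, SE 0.04, adjusted p = 3.4e-07), and the ratio of 1.47 fell just short of 1.5. Eif4e3, a paralog that binds the cap in another way, rose more from a lower level. Its values were 9.77, 10.8, and 13.6 FPKM in Ad-GFP and 17.1, 18.9, and 23.5 FPKM in Ad-h-NR4A2, again without overlap (11.2 ± 1.4 and 19.9 ± 2.74 FPKM, log2 fold change 0.82, SE 0.10, adjusted p = 1.98e-05).

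Eif4e2, which encodes 4EHP, a cap-binding protein that does not bind eIF4G and represses translation, fell from 29.5 ± 1.09 to 24.3 ± 2.04 FPKM (log2 fold change -0.28, SE 0.06, adjusted p = 0.00127). Its groups came within a small distance, 27.8 FPKM being the lowest Ad-GFP value and 27.7 the highest Ad-h-NR4A2 value. Of the FPKM summed over the 3 cap-binding genes, Eif4e took 67.1% ± 1.45 in Ad-GFP and 73.4% ± 0.745 in Ad-h-NR4A2, and Eif4e2 took 23.8% ± 1.06 and 14.6% ± 1.28. Neither share overlapped between groups. The share of Eif4e3, 9.05% ± 1.04 and 11.9% ± 1.4, overlapped but was higher in 6 of 6 pairs.

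Eif4g2, or DAP5, a scaffold that lacks the eIF4E-binding part and serves cap-independent initiation, fell from 313 ± 14.7 to 259 ± 14 FPKM (log2 fold change -0.27, adjusted p = 0.000278, no overlap). Eif4g3, a canonical scaffold, had a log2 fold change of -0.10 (95% interval -0.29 to 0.09, adjusted p = 0.39). Of the helicases, Eif4a1 rose by a log2 of 0.22 (adjusted p = 0.00798). Eif4a2, the more abundant form here, ran from 369 to 451 FPKM (median 411) in Ad-GFP and from 428 to 481 FPKM (median 450) in Ad-h-NR4A2. These ranges overlapped (410.2 ± 35.8 and 451 ± 20.7 FPKM, log2 fold change 0.14, SE 0.06, adjusted p = 0.0653), and Eif4a2 was higher in 6 of 6 pairs and passed with the replicate block (adjusted p = 0.00185). The share of Eif4a2 in both helicases was 62.5% ± 3.14 and 61.2% ± 2.35. The helicase cofactors Eif4b and Eif4h each had a log2 fold change of 0.03 (95% intervals -0.10 to 0.16 and -0.10 to 0.17).

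**Figure D3:**
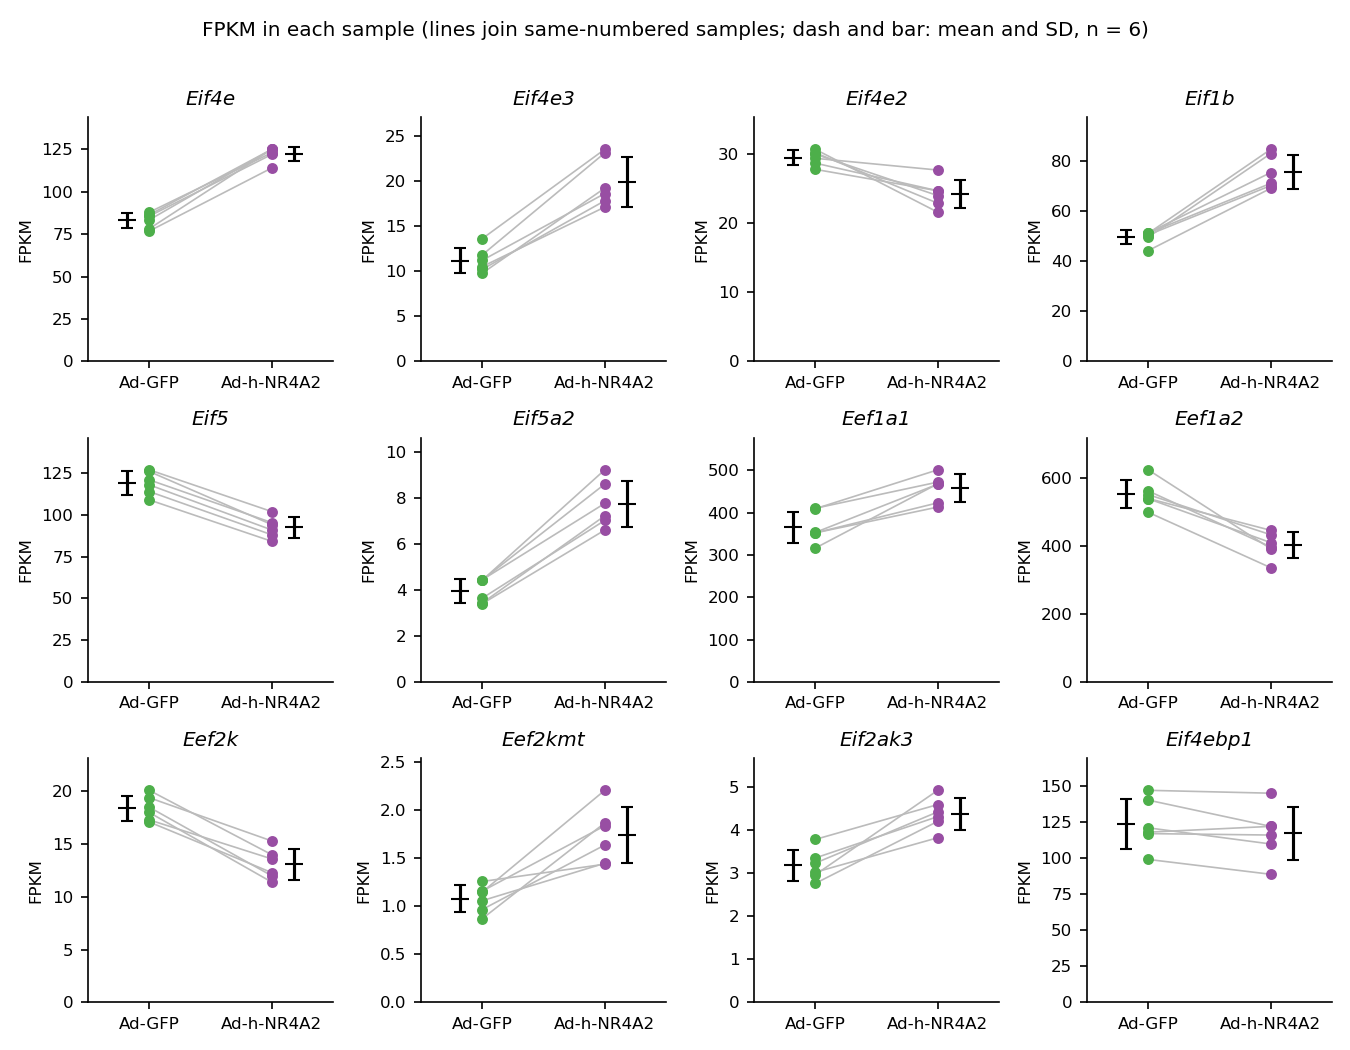
FPKM (vertical axis, from 0) of 12 factor genes in each Ad-GFP sample (green) and Ad-h-NR4A2 sample (purple), with lines between same-numbered samples and the mean and SD of 6 samples beside the points. Eif4e, Eif4e3, Eif1b, Eif5a2, Eef1a1, Eef2kmt, and Eif2ak3 lie higher in Ad-h-NR4A2 with no overlap, Eif4e2, Eif5, Eef1a2, and Eef2k lie lower with no overlap, and Eif4ebp1 overlaps.

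None of the 4 eIF4E-binding repressors passed the test, and all 4 had negative log2 fold changes, from -0.17 to -0.08. Eif4ebp1, which encodes 4E-BP1 and is the most abundant of them, had a lowest, median, and highest value of 99.1, 119, and 147 FPKM in Ad-GFP and 88.8, 119, and 145 FPKM in Ad-h-NR4A2. The groups overlapped almost fully (124 ± 17.3 and 117 ± 18.2 FPKM, log2 fold change -0.08, SE 0.11, 95% interval -0.32 to 0.16, adjusted p = 0.596). Eif4ebp2, the 4E-BP2 gene, ran from 33.2 to 40.3 FPKM (median 35.6) and from 27.7 to 37.9 FPKM (median 32.3), overlapping between groups but lower in 6 of 6 pairs. Its log2 fold change of -0.16 (36.2 ± 2.53 and 32.4 ± 3.77 FPKM, SE 0.07) had an adjusted p of 0.0983, and of 0.00313 with the replicate block. Eif4enif1, which encodes the eIF4E transporter 4E-T, likewise passed as lower with the block (-0.16, adjusted p = 0.114 without and 0.0191 with it). Summed over the 3 4E-BP genes, FPKM was 1.72 to 2.21 times that of Eif4e in Ad-GFP and 1.02 to 1.55 times in Ad-h-NR4A2, without overlap. Eif4e was already called by itself and the 4E-BP genes were not, so this separation is not a further result. All of these values are mRNA levels, and the phosphorylation that controls 4E-BPs was not measured in these data.

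Both genes of subunit joining rose, with marginal calls. Eif5b, the GTPase that joins the large subunit, was 46.2, 55.1, and 65.6 FPKM (lowest, median, highest) in Ad-GFP and 56.4, 64.6, and 75.4 FPKM in Ad-h-NR4A2, higher in 5 of 6 pairs (55.2 ± 6.58 and 65.1 ± 7.36 FPKM, log2 fold change 0.24, SE 0.09, adjusted p = 0.044). Eif6, which keeps free large subunits apart from small ones, was 70.1, 77.1, and 88.4 FPKM and 81.6, 87.2, and 94.4 FPKM, higher in 6 of 6 pairs (78.9 ± 7.04 and 87.7 ± 4.67 FPKM, log2 fold change 0.16, SE 0.06, adjusted p = 0.0484). The ranges overlapped for both. Each call was lost in 9 of the 12 fits that left out 1 sample, in which the adjusted p was 0.0146 to 0.0924 for Eif5b and 0.017 to 0.101 for Eif6. Both were also lost on the TPM scale, with quantile normalization, without the trend, and with no filter on low values.

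The eIF5A genes encode the factor that carries hypusine and helps ribosomes past difficult peptide bonds. Eif5a2, the paralog otherwise best known from testis, brain, and tumours, had the largest log2 fold change of the factor genes (Rn5, chromosome 2, 135034703 to 135051467). It was 3.4, 4.03, and 4.44 FPKM (lowest, median, highest) in Ad-GFP and 6.6, 7.49, and 9.22 FPKM in Ad-h-NR4A2. The groups stood apart (3.96 ± 0.523 and 7.74 ± 1 FPKM, log2 fold change 0.95, SE 0.11, adjusted p = 9.55e-06), on about 301 to 580 and 672 to 941 fragments per sample. Eif5a itself ran from 612 to 746 FPKM (median 693) and from 662 to 789 FPKM (median 733), overlapping between groups. Its log2 fold change was 0.09 (682 ± 48.9 and 726 ± 42.8 FPKM, SE 0.05, adjusted p = 0.205), with 6 of 6 pairs higher and an adjusted p of 0.0104 with the replicate block. Eif5a2 remained a small part of the eIF5A transcripts, 0.577% ± 0.0699 in Ad-GFP and 1.05% ± 0.118 in Ad-h-NR4A2.

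The genes for eEF1A, the carrier of aminoacyl-tRNA, changed in opposite directions. Eef1a1, the form of most tissues, was 316, 353, and 410.1 FPKM (lowest, median, highest) in Ad-GFP and 413, 468, and 501 FPKM in Ad-h-NR4A2 (365 ± 36.8 and 457 ± 33.1 FPKM, log2 fold change 0.33, SE 0.07, adjusted p = 0.00183). Eef1a2, the form of adult muscle and neurons, was 499, 545, and 624 FPKM in Ad-GFP and 336, 403, and 446 FPKM in Ad-h-NR4A2 (553 ± 41.2 and 402 ± 38.8 FPKM, log2 fold change -0.46, SE 0.07, adjusted p = 0.000126). Neither gene overlapped between groups, and each changed in the same direction in 6 of 6 pairs. Per length, Eef1a2 thus exceeded Eef1a1 in all Ad-GFP samples, with 56.8% to 61.4% of the summed FPKM, and took 41.7% to 51.2% in Ad-h-NR4A2. Of the 5 cardiomyocyte markers, 4 fell along with Eef1a2, with log2 fold changes of -0.86 for Myh7, -0.68 for Ryr2, -0.56 for Myh6, and -0.26 for Tnnt2, while Actn2 rose by 0.22.

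The eEF1B subunits recharge eEF1A with GTP. Eef1d rose slightly but without overlap, from 43.3 to 47.5 FPKM in Ad-GFP to between 48.6 and 52.3 FPKM in Ad-h-NR4A2 (log2 fold change 0.13, adjusted p = 0.00822). Eef1g, the most abundant of the class, was 529, 576, and 596 FPKM (lowest, median, highest) and 529, 581, and 604 FPKM. Its groups were almost the same (568 ± 26.5 and 576 ± 26.4 FPKM, log2 fold change 0.02, SE 0.04, 95% interval -0.07 to 0.11, adjusted p = 0.741). Eef1b2, the gene with the NBRE in its promoter, had a log2 fold change of 0.07 (95% interval -0.03 to 0.18, adjusted p = 0.274).

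Eef2, the translocase and the most abundant of all factor genes, was 935, 1024, and 1080.2 FPKM (lowest, median, highest) in Ad-GFP and 929, 1082, and 1160.1 FPKM in Ad-h-NR4A2. The groups overlapped (1016 ± 60 and 1068 ± 91 FPKM, log2 fold change 0.07, SE 0.06, 95% interval -0.06 to 0.20, adjusted p = 0.386). Its inhibitory kinase, Eef2k (Rn5, chromosome 1, 197723279 to 197765825), fell most of the factor genes. It was 17.1, 18.2, and 20.1 FPKM in Ad-GFP and 11.4, 12.9, and 15.3 FPKM in Ad-h-NR4A2, with no overlap (18.4 ± 1.17 and 13.1 ± 1.44 FPKM, log2 fold change -0.49, SE 0.07, adjusted p = 0.000124). Accordingly the ratio of Eef2 to Eef2k was 51.8 to 59.1 in Ad-GFP and 75.4 to 88.1 in Ad-h-NR4A2. Eef2kmt, the methyltransferase of eEF2, was the least abundant factor gene, at 0.872, 1.11, and 1.26 FPKM and 1.44, 1.74, and 2.21 FPKM. It rose without overlap (1.08 ± 0.142 and 1.74 ± 0.295 FPKM, log2 fold change 0.64, SE 0.12, adjusted p = 0.00105) on only 29 to 52 and 54 to 81 fragments per sample.

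**Figure D4:**
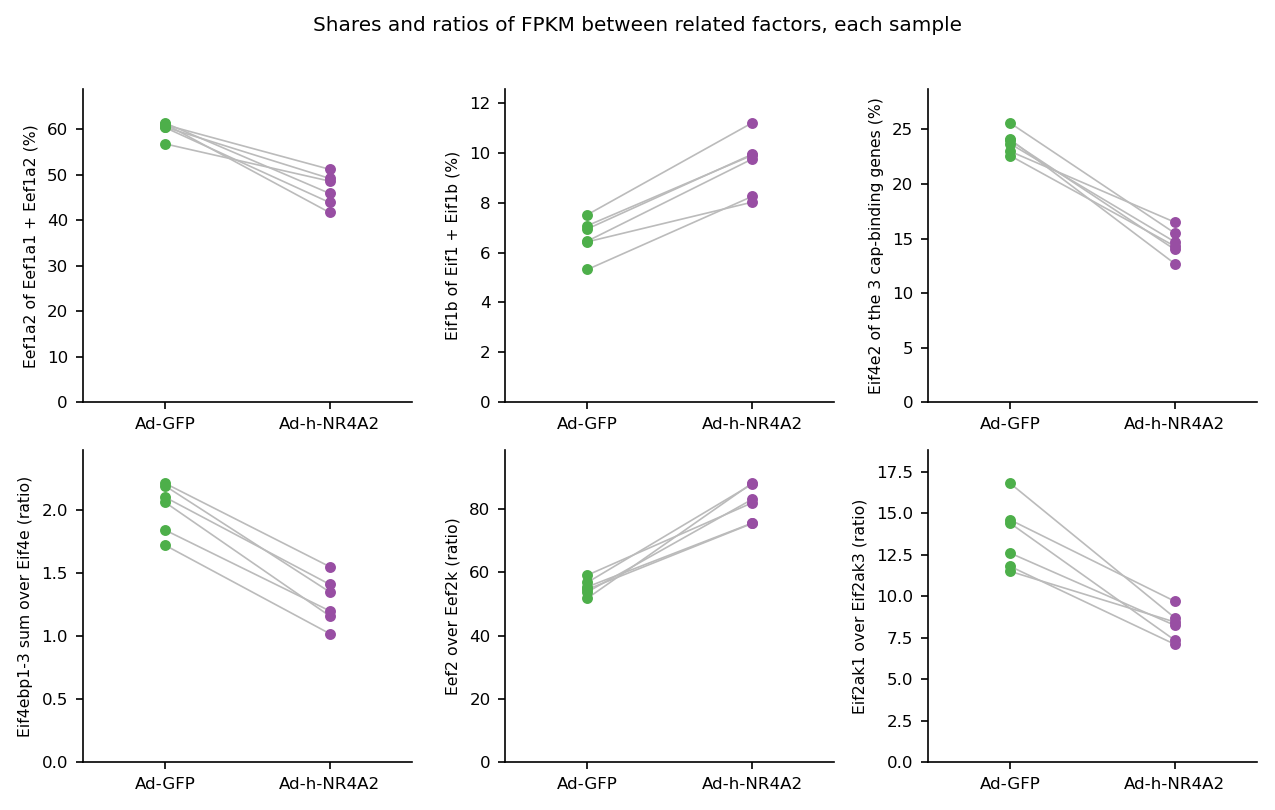
Shares (percent) and ratios of FPKM between related factor genes (vertical axes, from 0) in each Ad-GFP sample (green) and Ad-h-NR4A2 sample (purple), with lines between same-numbered samples. In none of the 6 panels do the groups overlap, and the Eef1a2 share is 56.8% to 61.4% in Ad-GFP and 41.7% to 51.2% in Ad-h-NR4A2. The shares of Eif4e, Eif4e3, Eif5a2, and Eif4a2 are not drawn, and those of Eif4e3 and Eif4a2 overlap. Each panel holds a gene already called by itself, so its separation is not a further result.

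The 3 genes that carry such a symbol without being translation factors in the strict sense all rose. Eef1e1 encodes AIMP3, a scaffold of the multisynthetase complex, and was 43.4, 49.9, and 53.7 FPKM in Ad-GFP and 55.5, 62.7, and 73.2 FPKM in Ad-h-NR4A2, without overlap (48.8 ± 4.14 and 63.1 ± 5.82 FPKM, log2 fold change 0.37, SE 0.07, adjusted p = 0.000792). Eif4a3, the helicase of the exon junction complex, was 55.1, 59.6, and 65.1 FPKM and 61.8, 68.5, and 73.6 FPKM with some overlap (59.7 ± 3.57 and 68.1 ± 4.69 FPKM, log2 fold change 0.19, SE 0.05, adjusted p = 0.0121). Eif1ad, which shares a domain with eIF1A, rose by a log2 of 0.42 (adjusted p = 0.00941). Without these 3 genes, an alternative chosen after seeing the data, 24 factor genes rose and 6 fell.

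A list of 52 other genes that modify or work beside these factors was counted in the same way, and 45 of them were tested. Of these 10 rose (22.2%) and 8 fell (17.8%), close to the 19.3% and 21.7% of all genes, and with the replicate block 16 rose (35.6%) and 13 fell (28.9%), against 27.1% and 32.3% of all genes. Mknk2, a kinase of eIF4E, passed the 1.5-fold limit downward. It was 141, 194, and 259 FPKM (lowest, median, highest) in Ad-GFP and 82.3, 105, and 159 FPKM in Ad-h-NR4A2, overlapping but lower in 6 of 6 pairs (189 ± 44.2 and 111 ± 28.1 FPKM, log2 fold change -0.77, SE 0.17, adjusted p = 0.00293). The following genes were picked out after their values were seen. Mknk1, the other eIF4E kinase, fell as well (log2 fold change -0.53, adjusted p = 3.65e-05). Pabpc1, a cytoplasmic poly(A)-binding protein that contacts eIF4G, rose from 159.7 ± 16.9 to 236 ± 18.8 FPKM (0.57, adjusted p = 3.82e-05). Its more abundant relative Pabpc4, with means of 318 FPKM in Ad-GFP and 302 FPKM in Ad-h-NR4A2, was not called (-0.08, adjusted p = 0.408). On the S6 kinase axis, Rps6kb1 (log2 fold change -0.23, adjusted p = 0.00151) and the eIF4A inhibitor Pdcd4 (-0.31, adjusted p = 0.000606) fell without overlap. The mTORC1 inhibitors Tsc1 (-0.26, adjusted p = 0.0334) and Tsc2 (-0.36, adjusted p = 0.0266) fell and Mlst8 (0.33, adjusted p = 0.0112) rose, each with overlapping groups. Without the block, Mtor (0.03, adjusted p = 0.765), Rheb (0.1), Rptor (0.13), Akt1s1 (-0.13), and Rps6kb2 (-0.04) were not called. The ribosome rescue factor Pelo (-0.47) and the mitochondrial recycling factor Mrrf (-0.38) fell. Of the same list, the termination and recycling genes Denr (0.22), Mcts1 (0.18), and Abce1 (0.13) and the mitochondrial factor gene Tsfm (0.15) rose. The release factor genes Gspt1 and Gspt2 passed the 1.5-fold limit upward but were at most 0.385 and 0.406 FPKM in any sample, and as close copies they cannot be separated with confidence.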

How the data were processed

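RNA of 12 ARVM samples was sequenced by the authors from stranded poly(A)-selected libraries as paired-end reads in 1 pooled run, aligned to Rn5 with STAR, and quantified with Cufflinks. The FPKM deposited by the authors are per RefSeq transcript and per sample. The strand setting and the handling of multiply mapped reads are not given in the sources used here. Per the paper, each of the 6 experiments used ARVMs from another rat.

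A gene was represented by its most abundant transcript, and the 10950 of 17301 gene names above 0 in all samples were fitted as log2(FPKM + 0.1), which understates changes of low genes, with limma 3.58.1 (eBayes with trend) in R 4.3.3, two-sided, without a block. The unpaired design follows the unpaired t-test that the paper names for its group comparisons in general. For the sequencing data the paper itself used a Cufflinks workflow to call differences. Deviations from the group means of same-numbered samples correlated at 0.347 to 0.623 in all 6 pairs. The numbers were therefore taken to pair the samples, and the replicate block was an alternative. The labels do not say what the numbers stand for, and correlations between samples of different numbers are not given here. Steps of low values implied 18600000 to 27800000 fragments per sample, and fragment numbers cover counting error only. On simulated data for the same 10950 genes, the fit recovered 177 of 200 genes changed by a log2 of 1, with 6 false calls. The simulated noise was independent between samples, unlike the paired deviations above, and only changes of that size were simulated. How well the fit finds smaller changes, such as those of the factor genes, was therefore not tested.

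The rule for factor genes reads only the symbol, but this group of genes, its classes, and the gene lists were picked with earlier results of these data known. Full values are given for genes past 1.5-fold, for the most abundant gene and that with the smallest adjusted p of each class, and for Eif4ebp1, Eef2k, Eif2ak3, Eef1a1, and Eef1a2. Of the list of other genes, those past 1.5-fold at a mean of at least 1 FPKM were to be named. The result was recomputed with the replicate block, on the TPM scale, after quantile normalization, with a pseudocount of 0.01 or 1, with no filter or only genes of mean FPKM 1 or more, without the trend, with transcripts summed per gene, without genes of several transcripts, with other limits, and with each sample left out in turn. Promoters are from RefSeq (GRCr8), matched by symbol or accession. Python 3.11.15, pandas 2.3.3, NumPy 2.4.6, and Matplotlib 3.10.9 were used.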

Additional observations from a re-analysis of the deposited data

Results flagged for a closer look

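In 118 groups of 6 values (59 factor genes in 2 groups), a highest or lowest sample was taken as far from the others when its gap to the nearest, as a share of the group's range, exceeded Dixon's critical value for 6 samples, which chance gives in about 1 of 20 groups. This held for 6 groups, close to the share that chance gives. Eif1b was 44.3 FPKM in Ad-GFP sample 28, against a group median of 50.9, and Eif3b was 109 FPKM in the same sample, against 90.1. In Ad-h-NR4A2 sample 28, Eif3m was 208 FPKM (median 227) and Eif4e was 114 FPKM (median 124). Eif3d was 83.2 FPKM in Ad-h-NR4A2 sample 25 (median 93.2), and Eif1ad was 18.6 FPKM in Ad-h-NR4A2 sample 24 (median 15.3). Samples numbered 28 thus account for 4 of the 6, in separate libraries of both groups, and whether this exceeds chance was not tested. In the fits that left out 1 sample each, the calls of Eif1b, Eif3m, Eif4e, Eif3d, and Eif1ad were unchanged, but without Ad-GFP sample 28 the ratio of Eif1b fell below 1.5.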

How the results depend on the processing

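None of the 33 calls changed direction under any alternative, and 28 stayed below an adjusted p of 0.05 under each other scale, filter, and fit, the exceptions being Eif3l, Eif5b, Eif6, Eif2b4, and Eif2s3x. At a stricter adjusted p of 0.01, chosen after seeing the data, these 5 and Eif2b1 and Eif4a3 were lost, leaving 20 factor genes higher (33.9%, all genes 13.9%) and 6 lower (10.2%, all genes 14.1%). On the TPM scale 23 were higher (39.0%, all genes 17.1%) and 6 lower (10.2%, all genes 22.0%). With quantile normalization 23 were higher (39.0%, all genes 19.2%), 8 lower (13.6%, all genes 23.3%), Eif3k and Eif4ebp2 being added, and 3 were past 1.5-fold upward, without Eif1b. When each sample was left out in turn, 24 to 28 factor genes rose and 6 to 8 fell, 3 to 4 rose past 1.5-fold (3 without Ad-GFP 28, Ad-h-NR4A2 26, or Ad-h-NR4A2 27), and of the other genes of the pathway list 8 to 11 rose and 6 to 9 fell. With a ratio limit midway between 1 and 1.5, 11 factor genes rose (18.6%, all genes 12.7%) and 3 fell (5.08%, all genes 13.9%). The replicate block gave 33 higher and 9 lower factor genes, and 16 higher and 13 lower genes of the pathway list; it removed no call. Signs near 0 reversed for 7 genes that were not called, and the cause was not tested. With quantile normalization, the log2 fold change was -0.03 for Eef1g, -0.0029 for Eif3a, -0.04 for Eif3b, -0.01 for Eif4b, and -0.01 for Eif4h, and on the TPM scale it was -0.0048 for Eif3b. With 1 sample left out, it ranged from -0.00014 to 0.04 for Eef1g, from -0.0037 to 0.07 for Eif1, from -0.03 to 0.01 for Eif2s2, from -0.03 to 0.06 for Eif3b, from -0.01 to 0.06 for Eif4b, and from -0.0043 to 0.08 for Eif4h. The median of the factor genes was 0.09 on the TPM scale and 0.08 with quantile normalization, and that of all genes -0.043 and -0.037.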
